A study of Mus musculus with 8 samples.

Results

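Transcripts of the EGF receptor system were followed through 10 genes chosen by name, all of which were present among the 13687 genes of the expression table. They are the receptors Egfr, Erbb2 and Erbb3, the EGFR ligands Hbegf, Ereg, Areg, Tgfa and Btc, the ERBB3 ligand Nrg1, and Errfi1, the gene of the EGFR inhibitor MIG6. RNAseq was performed on primary peritoneal mesothelial cells (MCs), the cells that line the peritoneal cavity, from WT mice and from CAV1-/- littermates (B6.Cg-CAV1tm1mls/J), which lack caveolin-1, a scaffold protein of the plasma membrane pits called caveolae. Cells were released from parietal peritoneum with trypsin and grown to confluence, and the cultures of each animal were either left static or stretched for 24 h. Each of the 4 groups (WT static, WT stretched, CAV1-/- static and CAV1-/- stretched) held 2 cultures. The replicate number of the labels was taken to mark the animal. On that reading the same 2 WT and 2 CAV1-/- animals gave the static and the stretched cultures. Thus n is 2 animals per genotype, and the p-values measure the spread between these cultures only. The study states more replicates per condition for this experiment than the 2 cultures at hand. The study used mice of both sexes for its cell cultures, and the age of the animals and the sex behind each culture are not given in the sources used here.

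EGFR is a receptor tyrosine kinase that signals after a ligand joins it to another EGFR molecule or to a relative such as ERBB2, which binds no ligand itself, or ERBB3, whose kinase is weak. Most ligands are made as membrane proteins and are shed by ADAM proteases, which makes them short-range signals, and the activated receptor drives the RAS and ERK kinases and, with a delay, its own inhibitors. In mesothelial and other lining cells, HB-EGF, the product of Hbegf, and its relatives are known for promoting spreading, migration and wound closure, and EGFR can reside in caveolae.

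Ereg, Areg and Btc lie near each other on chromosome 5 of the mouse genome (build GRCm38, GENCODE M21): Ereg at chr5:91074622-91093646, Areg at chr5:91139599-91148432 and, on the opposite strand, Btc at chr5:91357261-91402994. The gaps between them are 45953 and 208829 bases. The other members lie apart, with Egfr at chr11:16752203-16918158, Erbb2 at chr11:98412470-98437716, Erbb3 at chr10:128567523-128589652, Tgfa at chr6:86195223-86275719, Nrg1 at chr8:31814551-32884029 and Errfi1 at chr4:150853919-150868892. All are protein-coding.

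RefSeq promoters (GRCm38.p6, 250 bases before to 50 after the start site) of 6 members were searched on both strands for 8 short motifs. These promoters held 7 start sites in all, and the counts below say nothing of the members left out. The cAMP response element, TGACGTCA, a site known to bind CREB-family factors, is the rarest of those found. It is present in 1.79% of all 32851 promoters. Among the 6 members searched, it is in the promoter of Areg, 61 bases before the start. It is also in the second promoter of Errfi1, 51 bases before the start. Both genes are known targets of growth factor signals, and the 250 bases before the start of each are shown for that reason, with the element in capitals. They are Areg, plus strand, chr5:91139349-91139598, and Errfi1, plus strand, chr4:150854820-150855069.
Areg: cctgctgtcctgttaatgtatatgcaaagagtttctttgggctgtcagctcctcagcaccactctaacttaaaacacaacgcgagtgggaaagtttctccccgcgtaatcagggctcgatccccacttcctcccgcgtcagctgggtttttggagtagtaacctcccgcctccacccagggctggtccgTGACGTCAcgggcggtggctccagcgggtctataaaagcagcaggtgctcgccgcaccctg
Errfi1: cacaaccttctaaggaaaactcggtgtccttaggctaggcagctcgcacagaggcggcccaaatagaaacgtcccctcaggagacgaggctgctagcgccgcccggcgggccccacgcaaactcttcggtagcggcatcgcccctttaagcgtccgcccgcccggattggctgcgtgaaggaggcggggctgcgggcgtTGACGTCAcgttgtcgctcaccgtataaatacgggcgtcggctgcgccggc
GGAATG, read by the TEAD partners of YAP, was found in 2 of the 7 promoters, those of Erbb2 and of the first start site of Errfi1, against 14.7% of all promoters. GGGCGG, read by SP1, was found in 4 (35.7% of all), CCGGAAG, read by ETS factors, in 1, that of Egfr (8.86%), and the NF-kB site in 6 (50.8%). TGANTCA of AP-1 (7.81%), TTCNNNGAA of STAT factors (8.3%) and the CArG box of SRF (1.63%) were in none of the 7. None of these matches overlapped the element in capitals, and a match is only a stretch of letters in the window.

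Read totals per library were 9777738 to 21203938, the 4 stretched ones being the deepest. Expression is given as TMM-normalized CPM, a read count scaled to a common library total by the TMM method. Cav1 was at 247 to 764 in the 4 WT cultures and at 12.8 to 34.5 in the 4 CAV1-/- cultures, without overlap. Of 12 mesothelial markers, all were detected in every culture, but their summed level was 2993 to 3807 in WT and 915 to 1147 in CAV1-/- MCs. The summed level of 11 leukocyte markers was 4690 and 4731 in the static and stretched cultures of the CAV1-/- animal of replicate 1 and 79.9 to 462 in the other 6. Fibroblast markers summed to 97.4 to 418 in the replicate 1 cultures and 731 to 1005 in the replicate 2 cultures. Muscle markers summed to 955 and 1204 in the replicate 1 CAV1-/- cultures and 161 to 638 elsewhere. Endothelial markers summed to 12.1 to 68.1, mostly through Kdr, which the study counts among markers that MCs share with endothelial cells. Cdh5, Tek and Emcn were at 0 to 3.59, and Pecam1 and Tie1 were not in the table. Of 6 epithelial markers only 2 were in the table, and Epcam, Cdh1, Krt5 and Esrp1 were not. The 2 measured summed to 99.4 to 165 in WT and 1.81 to 8.73 in CAV1-/- cultures. Of these, Krt14 was at 98.1 to 165 in WT and 1.40 to 6.13 in CAV1-/- cultures. The other, Cldn4, was at 0 to 1.33 in WT and 0 to 3.35 in CAV1-/- cultures. The part of these differences in the results below was not tested except where a value is given, and in bulk RNA fewer cells of a type and less RNA per cell cannot be told apart.

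The levels of the members spanned a wide range. Divided by the length of the merged exons, so that genes can be compared, Egfr was the highest with a mean of 24.6 TMM-normalized CPM per kb, followed by Errfi1 at 17.4, Hbegf at 12.9, Ereg at 7.63 and Erbb2 at 6.65. Nrg1 (0.554), Areg (0.526), Erbb3 (0.451), Tgfa (0.281) and Btc (0.201) formed a low group, and Erbb2 was above Nrg1 in 8 of 8 libraries. Egfr was above Errfi1 in 8 of 8 libraries as well, whereas neighbours elsewhere in the order changed places: Errfi1 was above Hbegf in 6, Hbegf above Ereg in 6, Ereg above Erbb2 in 4, Nrg1 above Areg in 5 and Areg above Erbb3 in 5. MCs of both genotypes thus held abundant transcript for EGFR, a middle level for ERBB2 and little for ERBB3. By mean TMM-normalized CPM, 95.8%, 59.4% and 14.6% of the genes in the table were below Egfr, Erbb2 and Erbb3. Erbb4, Egf, Nrg2, Nrg3 and Nrg4 were not among the genes of the table, and Epgn, the one further ligand gene present, was at 0.161 to 1.44 TMM-normalized CPM.

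**Figure D1:**
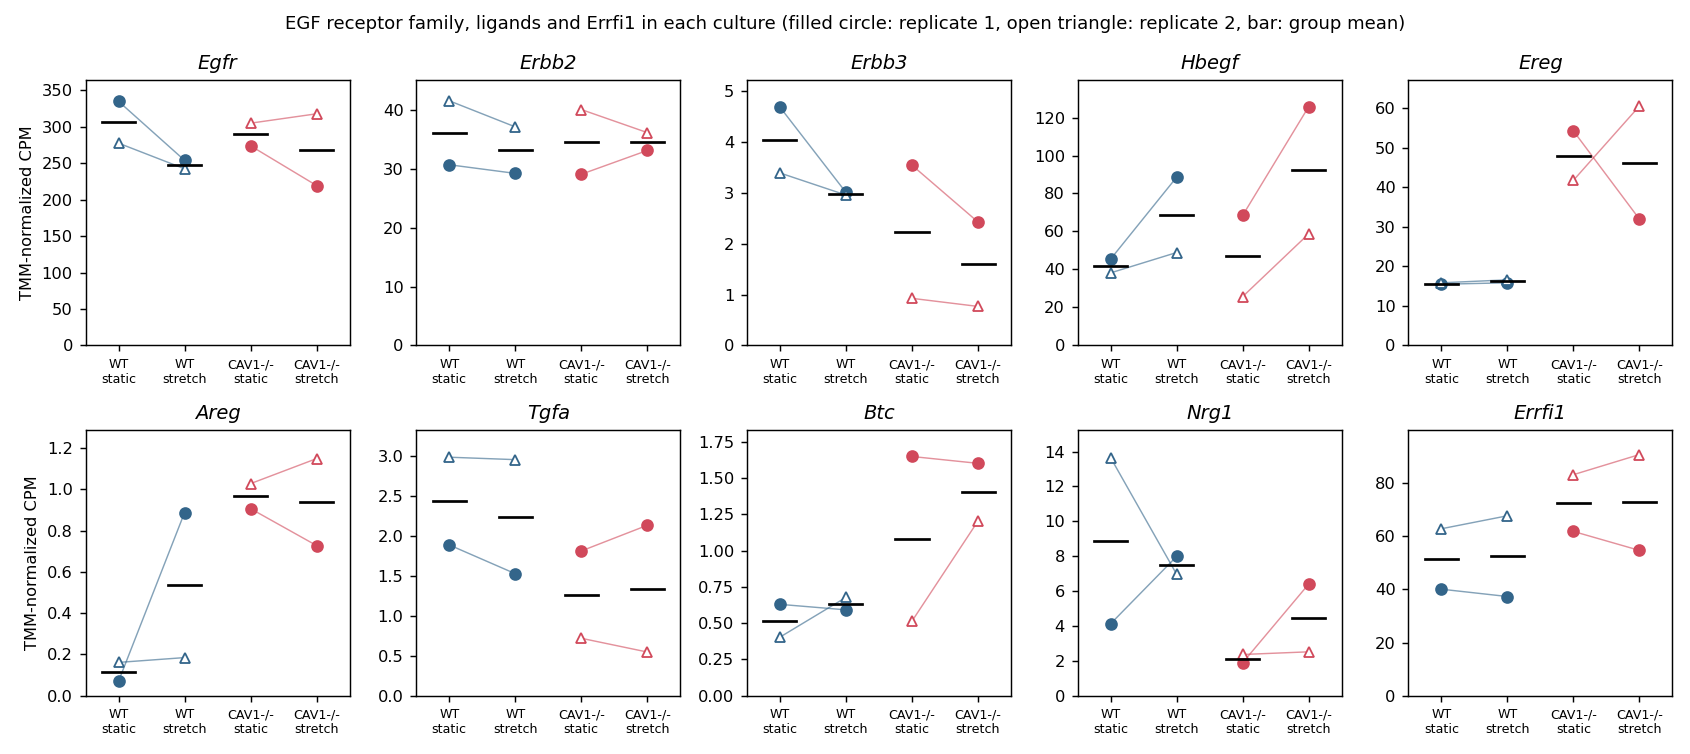
TMM-normalized CPM (vertical axes, each from 0) of the 10 genes in the 8 cultures, by group (horizontal axes). Circles are replicate 1, triangles replicate 2, lines join the 2 cultures of an animal and bars are group means; Ereg was higher in all 4 CAV1-/- cultures than in any WT culture, and every Hbegf line goes up.

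The design asks whether stretching changed the expression of these genes, whether the loss of caveolin-1 did, and whether the response to stretching differed between genotypes. Each question was addressed by limma on log2(value + 1) over 13665 genes, with Benjamini-Hochberg adjustment and a threshold of 0.05 on the adjusted p, and log2 differences below are on that scale, which understates changes of genes at low values. All 10 members were tested. Areg and Btc passed the filter on low values through their CAV1-/- cultures alone, so they are described between genotypes by their values, with no test. No member passed in any of the 6 comparisons, against 0.0% of all genes for stretching in WT MCs, in CAV1-/- MCs and averaged over both genotypes, 0.0732% and 0.0585% for genotype in static and in stretched MCs, and 0.0% for the interaction. At an unadjusted p under 0.05 in this unpaired fit, 4.73% of all genes and no member differed with stretching averaged over genotypes. For genotype in static MCs 8.17% of genes did so and, Areg and Btc aside, Ereg and Nrg1, and in stretched MCs 6.26% of genes and Ereg. For a single gene, the smallest two-sided p that exact permutation of 2 and 2 cultures allows is 0.333.

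Among the receptors, Egfr had 335 and 278 TMM-normalized CPM in static and 254 and 242 in stretched WT MCs, replicate 1 being given first here and for the genes that follow. CAV1-/- MCs had 274 and 305 in static and 219 and 318 in stretched culture. Both stretched WT cultures were below both static ones, as for 17.2% of all genes, whereas the CAV1-/- groups overlapped. Averaged over genotypes, Egfr was lower by 0.21 on the log2 scale with stretching (standard error 0.14, 95% interval -0.56 to 0.13, adjusted p = 0.991 from limma), and it was lower in 3 of 4 animals. Its genotype differences were -0.08 in static MCs (interval -0.57 to 0.41) and 0.09 in stretched MCs (interval -0.40 to 0.58).

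Erbb2, the coreceptor of EGFR and ERBB3, had the smallest ratio of highest to lowest value among the members, with a range from 29.1 to 41.6 TMM-normalized CPM. It was at 30.7 and 41.6 in static and 29.2 and 37.1 in stretched WT MCs, and at 29.1 and 40.1 in static and 33.1 and 36.2 in stretched CAV1-/- MCs. Replicate 2 was above replicate 1 in 4 of 4 groups, as for 21.4% of all genes, and the 3 group contrasts (stretching averaged, genotype static, genotype stretched) were -0.05, -0.06 and 0.07.

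Erbb3, the main receptor of neuregulins beside ERBB4, was at 4.69 and 3.39 in static and 3.01 and 2.96 in stretched WT MCs. CAV1-/- MCs had it at 3.54 and 0.925 in static and 2.43 and 0.766 in stretched culture, the lower values being 9 and 14 reads. The stretched culture was the lower one in 4 of 4 animals, as for 16.9% of all genes, with differences of -0.50 to -0.12 on the log2 scale, and the average difference was -0.30 (standard error 0.35, adjusted p = 0.999 from limma). The CAV1-/- cultures of replicate 2 were the lowest of all 8, and genotype differences were -0.76 in static and -0.70 in stretched MCs with intervals that included 0.

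Of the ligands, Hbegf was the most abundant EGFR ligand transcript per kb on average. WT MCs had 45.5 and 38.2 TMM-normalized CPM of it in static and 88.6 and 48.9 in stretched culture. CAV1-/- MCs had it at 68.5 and 25.7 in static and at 126 and 58.8 in stretched culture. The stretched culture was the higher one in 4 of 4 animals, as for 14.5% of all genes, with stretched to static ratios of 1.95 and 1.28 for WT and 1.84 and 2.29 for CAV1-/- animals. The static and stretched groups did not overlap in WT MCs (13.9% of genes were higher without overlap there) but did overlap in CAV1-/- MCs, since static replicate 1 was above stretched replicate 2.

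The average stretch difference of Hbegf was 0.83 on the log2 scale, a 1.78-fold difference (standard error 0.40, interval -0.15 to 1.81, adjusted p = 0.984 from limma). Since the static and stretched cultures were taken to come from the same animals, the fit was repeated with the animal as a block. Hbegf then passed with the same difference (interval 0.56 to 1.10, adjusted p = 0.0327 from limma with the block). In that fit 1.47% of all genes passed, 0.615% as higher with stretching, and Hbegf was the only 1 of the 10 members to do so. It no longer passed when either CAV1-/- animal was left out of the blocked fit (adjusted p = 0.145 without replicate 1 and 0.135 without replicate 2, limma), or with the animal as a random effect (adjusted p = 0.110, limma). Taken by genotype, the difference was 0.65 in WT and 1.01 in CAV1-/- MCs, and the 2 differed by 0.37 (interval -1.59 to 2.33, adjusted p = 1.00 for the interaction from limma), so a difference in response was not detectable.

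Hbegf also separated the replicate numbers: replicate 1 was above replicate 2 in 4 of 4 groups, as for 21.7% of genes. The summed leukocyte markers were also higher in replicate 1 of every group (439 against 79.9 in static and 462 against 82.7 in stretched WT MCs, 4690 and 4731 against at most 332 in CAV1-/- MCs). Between the static and stretched cultures of 1 animal the leukocyte sums were close, but in CAV1-/- replicate 1 they were mostly Lyz2. There Lyz2 went from 3647 static to 3920 stretched, while every other leukocyte marker measured was lower in the stretched culture. Itgam went from 314 to 205 and Laptm5 from 186 to 151. The fibroblast and the mesothelial marker sums were lower in the stretched culture in 4 of 4 animals, as were 16.9% of single genes. The single markers were mixed. Averaged over genotypes, 6 of 8 fibroblast and 8 of 12 mesothelial markers were lower with stretching and the others were higher. Fibroblast sums were at 418 static and 247 stretched and at 1005 and 874 in the WT animals, and at 153 and 97.4 and at 964 and 731 in the CAV1-/- animals. For the mesothelial markers these values were 3807 and 2993, 3459 and 3344, 1147 and 1079, and 1114 and 915. The part of these shifts in the Hbegf difference was not tested.

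**Figure D2:**
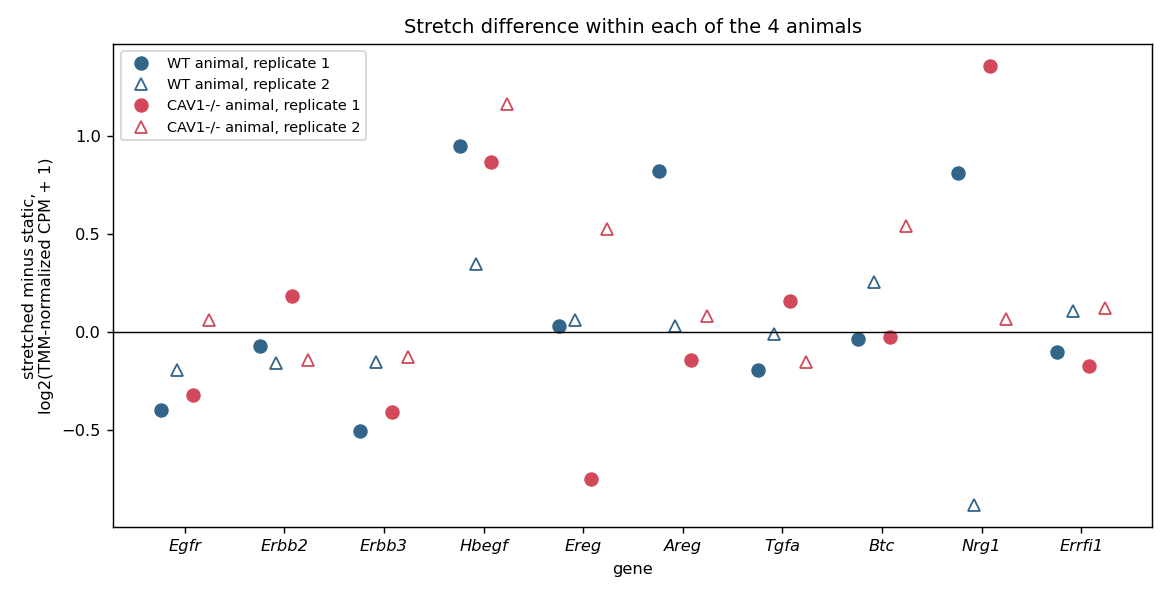
Stretched minus static difference on log2(TMM-normalized CPM + 1) (vertical axis) for each gene (horizontal axis) in each of the 4 animals, by genotype (colour) and replicate (symbol). Hbegf was above 0 in 4 animals (0.35 to 1.16) and Erbb3 below 0 in 4 (-0.50 to -0.12), while Ereg and Nrg1 had animals on both sides.

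Ereg, the gene of epiregulin, a ligand of EGFR and ERBB4, had the clearest genotype difference of the members. In WT MCs it stayed within a narrow band, at 15.5 and 15.8 TMM-normalized CPM in static and 15.8 and 16.6 in stretched culture. CAV1-/- MCs had it at 54.2 and 41.7 in static and 31.9 and 60.5 in stretched culture. Every CAV1-/- culture was above every WT culture, as for 3.86% of all genes, and the group means were 15.6 ± 0.26 against 48.0 ± 8.83 in static and 16.2 ± 0.53 against 46.2 ± 20.2 in stretched MCs (SD, n = 2).

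The Ereg difference between genotypes was 1.55 on the log2 scale in static MCs, a 2.92-fold difference (standard error 0.30, interval 0.81 to 2.28), and 1.39 or 2.62-fold in stretched MCs (standard error 0.30, interval 0.66 to 2.12). Over all genes these did not pass, with adjusted p = 0.163 and 0.325 from limma. DESeq2 on the recovered reads, with no term for the animal, gave adjusted p = 0.00106 and 0.00394. It called 2.26% and 1.73% of all genes and no other member. The range of adjusted p over 10 alternatives was 0.00106 to 0.452 in static and 0.00394 to 0.699 in stretched MCs. The highest values, 0.452 and 0.699, were from limma with the animal as a random effect. With stretching Ereg was about level in the WT animals (ratios 1.02 and 1.05) and went opposite ways in the CAV1-/- animals (0.589 and 1.45), and the interaction of -0.16 had an interval from -1.19 to 0.88.

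Values of other measures that moved with genotype stand beside the Ereg difference. The difference in static MCs was 1.36 without both cultures of CAV1-/- replicate 1, which carried most leukocyte transcript, and 1.73 without those of replicate 2, and in stretched MCs 1.84 and 0.94. In CAV1-/- replicate 2, where Ereg was at 41.7 and 60.5, the leukocyte sum was at most 332, against 439 and 462 in WT replicate 1 and 79.9 and 82.7 in WT replicate 2. Lyz2 was most of the sum in CAV1-/- replicate 2 (201 and 231) and in WT replicate 1 (302 and 345). Other markers differed in direction between these cultures. Itgam was at 20.5 and 21.2 against 19.9 and 12.4, and Cd68 at 11.3 and 13.2 against 46.3 and 25.2. The mesothelial marker sum was lower in all 4 CAV1-/- cultures, with 3 of 12 markers (Krt8, Lrrn4 and Cldn15) below the WT level at the threshold of limma, and the part of these shifts in the Ereg difference was not tested.

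**Figure D3:**
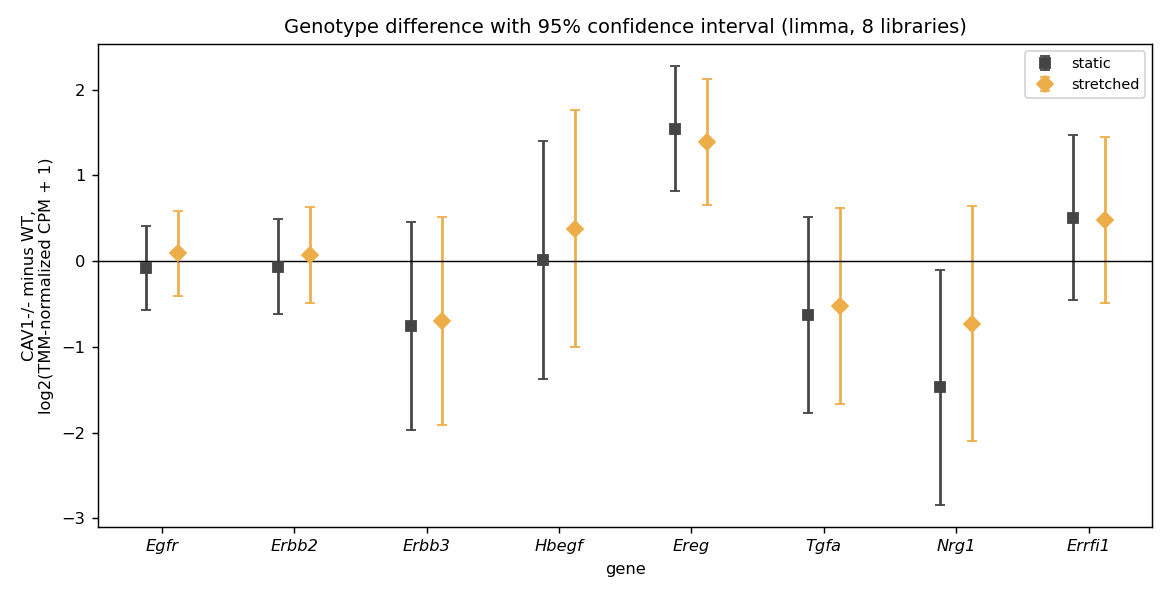
CAV1-/- minus WT difference on log2(TMM-normalized CPM + 1) (vertical axis) for 8 genes (horizontal axis) in static and stretched MCs, with 95% intervals from limma over the 8 libraries. The intervals exclude 0 for Ereg in both conditions (0.81 to 2.28 and 0.66 to 2.12) and for Nrg1 in static MCs, before adjustment for the number of genes.

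Areg, the gene of amphiregulin and the neighbour of Ereg, was near the limit of detection, with 1 to 21 reads per library. Static WT MCs had 0.0700 and 0.161 TMM-normalized CPM, 1 and 2 reads, and static CAV1-/- MCs 0.907 and 1.03, 11 and 10 reads. Stretched cultures had 0.888 and 0.185 in WT and 0.728 and 1.15 in CAV1-/- MCs. Of the WT cultures, 3 were below every CAV1-/- culture, and stretched WT replicate 1, with 18 reads, lay among the CAV1-/- cultures. Areg with stretching was higher in WT replicate 1, at 18 reads against 1, and near its static level in the other 3 animals.

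Btc, the gene of betacellulin and the third of the chromosome 5 neighbours, was at 0.630 and 0.404 in static and 0.592 and 0.678 in stretched WT MCs. CAV1-/- MCs had it at 1.65 and 0.514 in static and 1.60 and 1.204 in stretched culture. These values rest on 5 to 33 reads per library, with CAV1-/- static replicate 2 among the WT cultures and the other 3 CAV1-/- cultures above them.

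Tgfa, the gene of TGF-alpha, was at 1.89 and 2.99 in static and 1.53 and 2.96 in stretched WT MCs, and at 1.81 and 0.720 in static and 2.13 and 0.547 in stretched CAV1-/- MCs. Its lowest values, 7 and 10 reads, were those of CAV1-/- replicate 2, as for Erbb3. The genotype differences were -0.63 and -0.52 with intervals that included 0, and the static groups did not overlap (20.8% of genes were lower without overlap).

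Nrg1, whose neuregulin products act through ERBB3 and ERBB4, was at 4.13 and 13.6 in static and 7.99 and 6.96 in stretched WT MCs. It was at 1.90 and 2.36 in static and 6.40 and 2.52 in stretched CAV1-/- MCs. Both genotype comparisons were without overlap and lower in CAV1-/- MCs, as for 20.8% of genes in static and 15.9% in stretched MCs, but the span within static WT MCs, from 4.13 to 13.6, was wider than the gap to the CAV1-/- cultures. The difference was -1.47 in static MCs (standard error 0.56, interval -2.84 to -0.10, adjusted p = 0.563 from limma) and -0.73 in stretched MCs (adjusted p = 0.963). The static difference was -0.72 without WT static replicate 2 and -2.23 without WT static replicate 1. On stretching 3 of 4 animals were higher and WT replicate 2 was lower, and the interaction was 0.74 (interval -1.19 to 2.68).

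The transcripts of the 5 EGFR ligands were added up per kb in each culture to describe the mixture. The sum was 13.6 and 12.4 TMM-normalized CPM per kb in static and 23.3 and 14.9 in stretched WT MCs, and 28.7 and 16.5 in static and 35.03 and 28.1 in stretched CAV1-/- MCs. Within each animal the stretched culture held the larger sum, as it did for Hbegf alone, and 14.5% of all genes were higher in 4 of 4 animals. Hbegf made up 63.6% to 78.8% of it in WT MCs and 32.2% to 74.3% in CAV1-/- MCs, and Ereg 16.5% to 30.9% and 22.1% to 61.3%. Ereg was the larger of the 2 only in the static and stretched cultures of CAV1-/- replicate 2, and Areg, Tgfa and Btc together were a minor share in every culture. The sum is of transcript and says nothing of shed ligand.

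**Figure D4:**
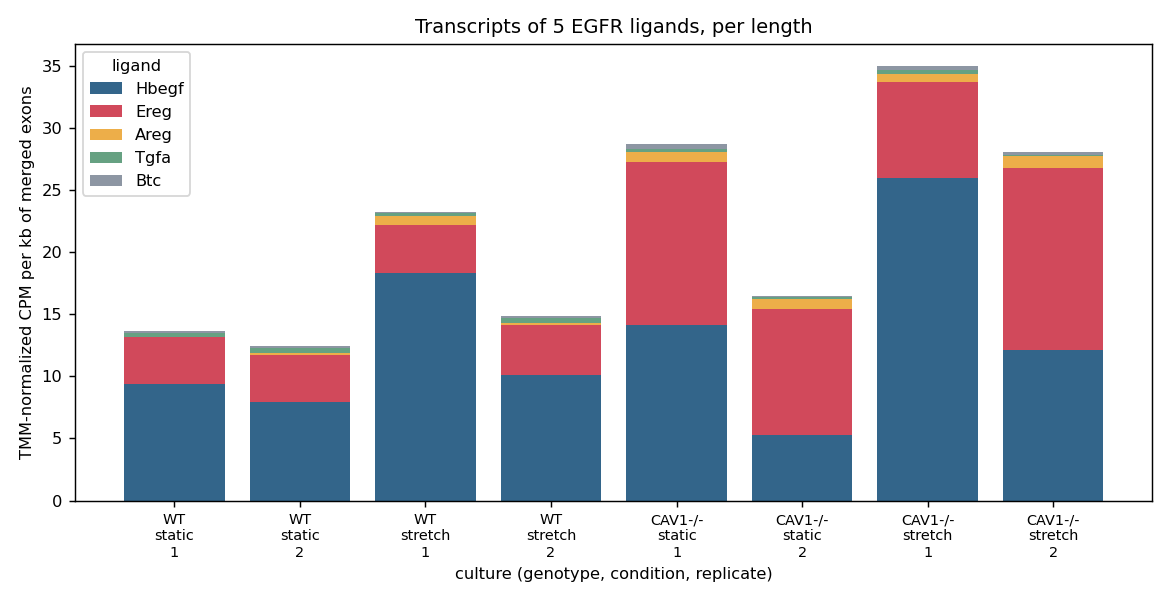
TMM-normalized CPM per kb of merged exons (vertical axis, from 0) of 5 EGFR ligands stacked for each of the 8 cultures (horizontal axis). The total lies between 12.4 and 35.03, Hbegf (blue) is the larger part in all 4 WT cultures, and Ereg (red) is the larger part in both cultures of CAV1-/- replicate 2.

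Errfi1, a gene that EGFR signalling is known to induce and whose product blocks the receptor's kinase, was at 40.1 and 62.8 in static and 37.3 and 67.7 in stretched WT MCs. CAV1-/- MCs had it at 61.8 and 83.2 in static and 54.7 and 90.7 in stretched culture. Replicate 2 was above replicate 1 in 4 of 4 groups, and the WT and CAV1-/- groups overlapped in both conditions. The genotype difference was 0.51 in static (standard error 0.40, adjusted p = 0.843 from limma) and 0.48 in stretched MCs (adjusted p = 0.970), and with stretching it was -0.01 (interval -0.69 to 0.67).

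Across the 8 libraries, which share animals and genotypes, log2 levels of Erbb3 and Tgfa varied together (Pearson r = 0.81), as did those of Areg and Ereg (0.79) and Tgfa and Nrg1 (0.71), while Ereg and Nrg1 ran opposite (-0.80). Egfr was nearly unrelated to Areg (-0.03) and to Erbb2 (0.11). Among 10797 genes with a mean of at least 5, those closest to Hbegf were Smurf2 and Rc3h2 (r = 0.98 each) and Tnfrsf23 (r = 0.98), and those closest to Ereg were Dennd4a (0.98), Phldb2 (0.98) and Tm9sf4 (0.97). For Egfr they were Ccdc122, Tgfbr2 and Prr11 (0.94 each), for Erbb2 Szrd1 and Usp10 (0.99 each) and Rap2a (0.98), for Nrg1 Ppp1r37 (0.97), Ppp1r16a (0.95) and Tprgl (0.94), and for Errfi1 they included Sytl2 and Gjc1 (0.98 each). With 8 points and this many genes, values of this size are descriptions only.

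The wider EGFR pathway was described by 82 other genes in 7 lists, of which 76 were in the table and were tested. None passed at the limma threshold in any comparison. With the animal as a block, 1 was higher and 3 were lower with stretching, against 1.47% of all genes. Since the lists were chosen with earlier results of these data known, this comparison is no test of the pathway. Il11, a cytokine gene induced by ERK, was higher by 1.43 (adjusted p = 0.0327 from limma with the block), and it was at 2.10, 3.96, 10.4 and 3.39 in the static and at 8.78, 8.13, 25.7 and 16.1 in the stretched cultures of WT replicates 1 and 2 and CAV1-/- replicates 1 and 2. Spry1, a Sprouty inhibitor of receptor kinase signalling, fell by 0.75 (adjusted p = 0.0424), the syndecan gene Sdc4 by 0.59 (adjusted p = 0.0278) and the early ERK target Egr1 by 0.50 (adjusted p = 0.0410), all from limma with the block. Sdc4 and Spry1 also passed by DESeq2 (adjusted p = 0.0200 and 0.0323, against 0.249% of all genes), but no pathway gene did so by edgeR. Of the 15 ERK-induced transcripts, 9 had a difference above 0 and 6 below, with a median of 0.04 against -0.01 over all genes. Fos, another early ERK target, was at -0.58 and did not pass. Between genotypes in static MCs the list's largest differences were those of Il11 (0.85), Ier3 (0.83) and Egr2 (0.74), none of which passed.

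The list of ligand shedding held the genes of 6 ADAM proteases and of 2 iRhoms, their partners, together with Timp3, whose product inhibits such proteases, and the median of these 9 genes with stretching was -0.05. The largest differences were those of Adam12 (0.39), Timp3 (-0.28) and Rhbdf1 (-0.21), none of which passed. Adam12, a protease gene, went from 203 to 280 and from 385 to 435 TMM-normalized CPM between static and stretched WT MCs. It went from 238 to 369 and from 574 to 714 between those of CAV1-/- animals. Thus Adam12 was higher in 4 of 4 animals, as were 14.5% of all genes. Adam17, the main sheddase of HB-EGF, was at 0.12 and Adam10 at -0.05. Between genotypes Adam19, another metalloprotease, had the largest difference of that list, 0.84 in static and 0.94 in stretched MCs (adjusted p = 0.315 and 0.352 from limma, 0.0350 and 0.0217 from DESeq2). It was at 139 to 199 TMM-normalized CPM in the WT and 287 to 378 in the CAV1-/- cultures. Adam19 and Socs3 were the 2 of 76 pathway genes called by DESeq2 in each condition, against 2.26% and 1.73% of all genes. Rhbdf2, which brings ADAM17 to the surface, differed by 0.62 in static and 0.51 in stretched MCs (adjusted p = 0.419 and 0.710 from limma), and Adam10 by -0.48 in static MCs without passing.

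Among 14 feedback inhibitors, members of the Sprouty and SOCS families had the largest genotype differences, in opposite directions. Socs3, also a target of cytokine signals through STAT3, was at 11.95 to 20.1 in the WT and 37.2 to 43.5 in the CAV1-/- cultures. It differed by 1.23 in static and 1.41 in stretched MCs (adjusted p = 0.122 and 0.144 from limma). By DESeq2 the adjusted p was 0.000345 and 1.91e-05, against 2.26% and 1.73% of all genes called. Spry4 was at 29.8 to 57.6 in WT and 13.5 to 30.2 in CAV1-/- cultures (-1.002 and -0.995), and passed only with the replicate number as a block (adjusted p = 0.0251 and 0.0394 from limma, against 1.8% and 0.805% of all genes). Spry1 differed by -0.92 and -0.79 and did not pass in any of these fits. With stretching Dusp4, a MAPK phosphatase gene, was at 0.37 and Spry2 at -0.29, neither of which passed. Over the list the median genotype difference was -0.07 in static and 0.05 in stretched MCs.

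Of the 17 adaptor and MAPK cascade genes and the 12 genes of receptor endocytosis and degradation, none passed with the block or by DESeq2. The medians with stretching were 0.02 and 0.09, the latter with 11 of 12 genes above 0. The medians for genotype in static MCs were 0.00 and 0.08. Over all genes the median was -0.01 in both comparisons. The largest stretch differences were those of Map2k1 (0.36), Sos1 (0.20) and Map2k2 (-0.18) in the first list and Cblb (0.25), Rab5a (0.24) and Eps15 (0.22) in the second. Between genotypes in static MCs, Grb2 was at 0.26 in the first list, and Sh3kbp1 (0.59), Cblb (0.39) and Stam (0.22) led the second. Gab1, an EGFR docking protein, was at -0.61 in static and -0.36 in stretched CAV1-/- MCs, Map2k1, the MEK1 gene, at 0.40 and 0.47, and Cbl, the ubiquitin ligase of the activated receptor, at 0.06 and 0.77, all without passing. The 8 docking partners measured had a genotype median of 0.43 in static and 0.27 in stretched MCs, with Gpc1, Sdc1 and Dcn at 0.70, 0.68 and -0.97 in static MCs. With stretching Dcn was at -0.82 and Itgb1 at 0.40, without passing. Dcn, also a fibroblast gene, was higher in replicate 2 than in replicate 1 of every group, as was the fibroblast marker sum.

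**Figure D5:**
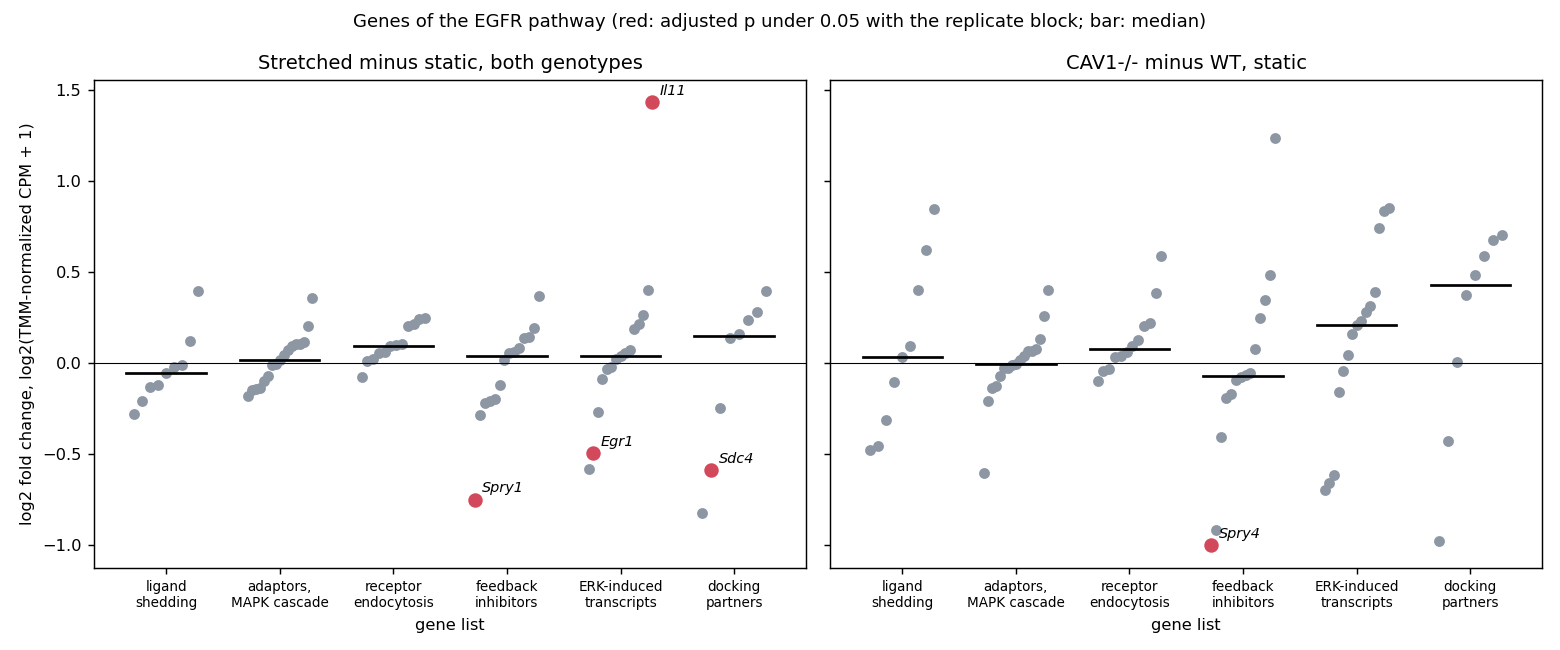
Log2 difference on log2(TMM-normalized CPM + 1) (vertical axis) of the genes of 6 pathway lists (horizontal axis), for stretching averaged over genotypes (left) and for genotype in static MCs (right), with bars at list medians. Il11 (1.43), Spry1 (-0.75), Sdc4 (-0.59) and Egr1 (-0.50) on the left and Spry4 (-1.002) on the right passed with the replicate block (red).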

How the data were processed

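The members and gene lists were chosen with earlier results of these data known. Poly-A RNA of 8 cultures was sequenced as single reads; the authors trimmed them (Cutadapt), estimated reads per gene against the GRCm38 transcriptome (RSEM), left out low genes and normalized by TMM (edgeR). The deposited signal is TMM-normalized CPM, whose values were whole multiples of 1 read in each library (100% whole within 0.01), so reads could be recovered. A floor of 3 reads equals 0.146 to 0.308 TMM-normalized CPM and covers counting error only.

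Genes with a value of 1 or more in 2 or more libraries (13665) were compared with limma 3.58.1 (R 4.3.3) on log2(value + 1), with eBayes and a trend, 1 mean per group over all 8 libraries and no block, because the study's methods name none. Adjusted p under 0.05 was called. The replicate labels were taken to pair the static and stretched cultures of an animal, whose deviations correlated at 0.703 in WT and 0.850 in CAV1-/- MCs. Across genotypes the replicate number joins different animals (0.522 static, 0.484 stretched).

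Alternatives were pseudocounts of 0.1 and 5, no filter, a mean of at least 5, median-of-ratios and quantile scaling, the replicate block (animal for stretching, number for genotype), the animal as a random effect, eBayes without trend, edgeR 4.0.16 and DESeq2 1.42.0 on recovered reads, and each culture or animal left out. The block with edgeR, with other scalings and pseudocounts and with each animal left out was added after seeing the data. Limma, limma with the block and edgeR were tried on simulated data that held no animal effect. DESeq2 and the animal as a random effect were not tried there. Named genes are the members, Cav1, called pathway genes, the 3 largest differences of a list (given for stretching averaged and for genotype in static MCs) and the 3 genes with the highest r to each member of mean 5 or more; Adam17, Adam10 and others given beside them were named after their values were seen. One of the genes closest to Errfi1 is not reported here. Gene positions are from GENCODE M21, in which 13597 identifiers were found, and promoters from RefSeq.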

Additional observations from a re-analysis of the deposited data

How the results depend on the processing

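Over 10 alternatives and 12 fits with a culture or animal left out, 1 member passed (0 as reported) in few settings. For stretching averaged over genotypes it was Hbegf, 1 member with the replicate block, with edgeR and the block, and with the block under median-of-ratios or quantile scaling or a pseudocount of 0.1 or 5 (adjusted p = 0.0308 to 0.0426, limma or edgeR). Leaving out cultures or animals gave 0 to 1 members there, 1 being the blocked fit without either WT animal. For genotype it was Ereg, 1 member in static and 1 in stretched MCs, with DESeq2. The cause was not tested. The block changed no other call of a member. Errfi1 with stretching turned from -0.01 to 0.017 by edgeR and 0.018 by DESeq2. Without single cultures or animals the log2 difference spanned 0 with stretching for Areg (-0.00024 to 0.39), Btc (-0.017 to 0.39), Erbb2 (-0.16 to 0.065), Erbb3 (-0.61 to 0.013), Ereg (-0.35 to 0.29), Errfi1 (-0.22 to 0.20), Nrg1 (-0.085 to 0.76) and Tgfa (-0.30 to 0.20). It did so for genotype in static and stretched MCs for Egfr (-0.21 to 0.058 and -0.18 to 0.36), Erbb2 (-0.29 to 0.16 and -0.099 to 0.24) and Hbegf (-0.68 to 0.70 and -0.16 to 0.92), and, of the 3 interactions given in the text, for Ereg (-0.79 to 0.48), Hbegf (-0.32 to 1.06) and Nrg1 (-0.10 to 1.59). In all, of the values with cultures or animals left out 383 kept direction and call, 58 turned in direction and 2 came to pass, and under the other alternatives 342, 2 and 8 did so. Over all genes the calls for stretching averaged were 201 with the block and 34 by DESeq2 against 0, for genotype in static MCs 246, 309 and, by edgeR, 2 against 10, and in stretched MCs 110 and 237 against 8. The filter on a mean of at least 5 left out 4 members (Areg, Erbb3, Tgfa and Btc). The 1 to 21 reads of Areg limit what can be said of it.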
